A study of Amorphotheca resinae with 20 samples.

Results

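4-Hydroxybenzaldehyde was tested against an untreated control in mycelia of Amorphotheca resinae ZN1, a filamentous fungus. The comparison was defined by the labels of the phenolic aldehyde experiment, which put 2 libraries in the 4-hydroxybenzaldehyde group and 2 in the control, so 4 of the 20 libraries of the series. Both groups were wild type and were grown at 28 °C on potato-dextrose medium, and mycelia were collected at 4 h. The treated cultures received 4-hydroxybenzaldehyde at 0.1 g/L, which is 0.819 mmol/L, and the controls received no inhibitor. The same experiment held vanillin (0.1 g/L, 0.657 mmol/L) and syringaldehyde (0.1 g/L, 0.549 mmol/L), with 2 libraries each. Furfural and 5-hydroxymethylfurfural (HMF) at 1.0 g/L, acetic acid at 2.0 g/L and formic acid at 4.0 g/L were tested against their own controls in the other experiments. The labels do not say whether the libraries of a group came from separate cultures, so p-values measure the spread between these libraries, which may be technical.

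4-Hydroxybenzaldehyde is the simplest of the phenolic aldehydes released from lignin when plant biomass is pretreated. It has a hydroxyl and an aldehyde group on a benzene ring, vanillin adds 1 methoxy group to that ring and syringaldehyde adds 2. Such aldehydes inhibit the growth of fermenting microbes, and fungi that tolerate them can reduce the aldehyde to the alcohol or oxidise it to the acid, after which the ring can be opened and used as a carbon source. A. resinae ZN1 is a strain used to remove inhibitors of this kind from pretreated biomass.

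The values were read counts for 18830 gene identifiers, and the total was 15058009 and 15534822 counts in the 4-hydroxybenzaldehyde libraries, against 17115633 and 21519549 in the control libraries. Levels are given in CPM, the count divided by the scaled library total and multiplied by 1000000. At the lowest of these depths, before scaling, 1 CPM was about 15.1 reads. No file pairs these identifiers with names or products, and 0 of them matched the 9642 RefSeq genes of assembly Amore1, which comes from a different A. resinae strain. The results are therefore given by identifier, without functions, and the mycelial origin of the RNA could not be checked against marker genes. Reads that fit several near-identical genes may have been split between them, so the level of any 1 identifier is uncertain in that respect. In bulk mycelia, fewer cells of a type and less RNA per cell cannot be told apart.

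The 4-hydroxybenzaldehyde libraries were the closest pair of the experiment. Across 11614 genes with at least 10 CPM, the log2 difference between the libraries of a group had an SD of 0.16 for 4-hydroxybenzaldehyde, 0.26 for vanillin, 0.42 for syringaldehyde and 0.31 for the control. The 4-hydroxybenzaldehyde pair still differed by more than sampling noise, with a chi-square of 7.02 per degree of freedom, so it was counted as 2 libraries. The corresponding values were 21.0 for vanillin, 62.9 for syringaldehyde and 38.1 for the control. A difference of more than 2-fold between the libraries of a pair was seen for 7 genes with 4-hydroxybenzaldehyde and for 84 genes in the control.

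The first question was which genes changed with 4-hydroxybenzaldehyde, and by how much. The list of called genes held many small changes and a few very large rises. Of 17495 genes tested, 1418 (8.11%) passed the test, of which 544 (3.11%) were higher and 874 (5.0%) were lower with the compound. The threshold for a call was an adjusted p of 0.05 (edgeR quasi-likelihood test, Benjamini-Hochberg adjustment over all genes tested). The median fold change was 1.75 among the genes called higher and 1.80 among those called lower. At least 2-fold changes were found for 157 genes that were higher and 272 that were lower.

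Sorted by size, the called genes showed a different shape on the side of the rises and on that of the falls. Changes between 1.5-fold and 2-fold were the most frequent of these classes on either side, with 336 genes higher and 555 lower. Under 1.5-fold, 51 genes were called higher and 47 lower, and the median fold change of all genes tested, in either direction, was 1.23. Small changes pass the test less easily, so the list does not show how frequent they were. From 2-fold to 4-fold there were 134 higher and 257 lower genes, and from 4-fold to 8-fold 15 and 13. At 8-fold to 32-fold 3 genes were higher and 2 lower. At least 32-fold there were 5 higher genes and 0 lower genes in the edgeR test, and the number of lower genes was also 0 at an unadjusted p under 0.05 and with DESeq2.

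**Figure D1:**
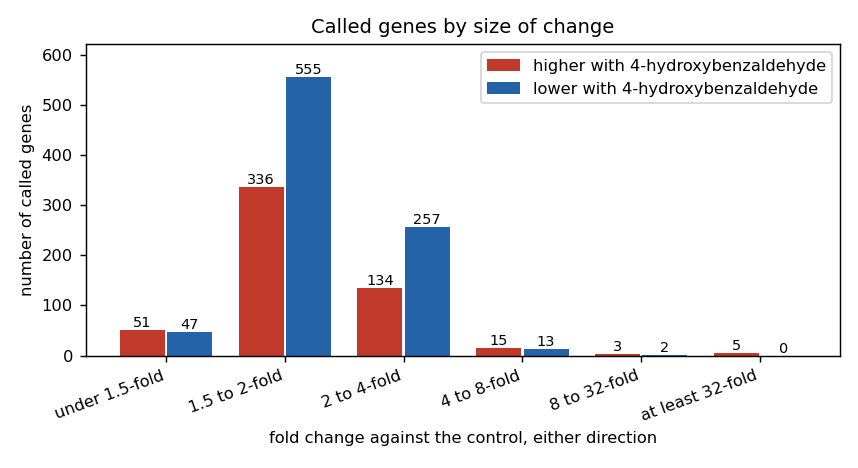
Number of genes called changed with 4-hydroxybenzaldehyde against the control, by size of the fold change; red bars are genes called higher and blue bars genes called lower. The class from 1.5-fold to 2-fold holds 336 higher and 555 lower genes, and the class of at least 32-fold holds 5 higher and 0 lower.

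Calls depended on the level of the gene. Among 1149 genes under 1 CPM, 1 was called higher and 0 lower in the edgeR test (14 lower at an unadjusted p under 0.05, and 4 higher and 1 lower with DESeq2). From 1 to 10 CPM, 1.55% of 4762 genes were higher and 1.18% lower. From 10 to 100 CPM, 3.30% of 9262 genes were higher and 6.92% lower. Above 100 CPM, 7.02% of 2322 genes were higher and 7.62% lower, so the excess of lower genes lay in the middle range of levels.

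Shares of CPM, which count reads and not transcripts, were taken for the called genes, which were 8.11% of the genes tested. The 544 genes called higher took 8.11% and 7.97% of CPM in the 4-hydroxybenzaldehyde libraries, against 4.13% and 4.41% in the control libraries. The 874 genes called lower took 4.498% and 4.62% in the 4-hydroxybenzaldehyde libraries, against 9.13% and 8.55% in the control libraries. These genes were chosen by the same contrast, so the shares describe the size of the response and are no test of it.

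**Figure D2:**
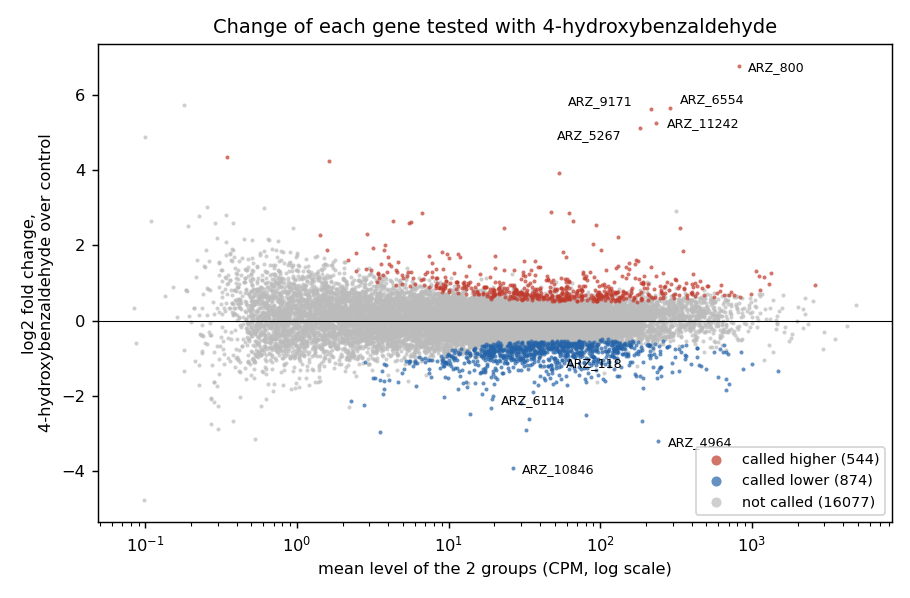
Log2 fold change of 4-hydroxybenzaldehyde over the control (vertical axis) against the mean level of the 2 groups in CPM (horizontal axis, log scale), 1 point for each of 17495 genes; red points were called higher, blue points lower and grey points not called. The 5 genes that rose at least 32-fold stand apart at the top at levels above 100 CPM, and 429 of the 1418 called genes lie at or beyond 1 log2 unit from no change.

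The largest rise was that of ARZ_800_T1. It had 1696 and 1567 CPM in the 4-hydroxybenzaldehyde libraries, against 18.8 and 11.2 CPM in the control libraries. Both treated libraries lay far above both controls, a log2 fold change of 6.77 ± 0.34 (SE; adjusted p = 1.57e-07, edgeR quasi-likelihood, as for all adjusted p-values below), or 109-fold. Among the genes tested, it ranked 22 by mean CPM with 4-hydroxybenzaldehyde and 10247 in the control.

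ARZ_6554_T1 had 569 and 552 CPM in the 4-hydroxybenzaldehyde libraries, against 8.97 and 13.4 CPM in the control libraries. The groups did not overlap, and the log2 fold change was 5.64 ± 0.22 (49.9-fold, adjusted p = 9.49e-09). No overlap with the control was a condition for naming a gene, and it held for 62.9% of all genes tested. ARZ_9171_T1 reached 429.9 and 410.2 CPM with 4-hydroxybenzaldehyde, against 8.80 and 8.23 CPM in the control. Its libraries agreed closely within each group, with a log2 fold change of 5.62 ± 0.18 (49.3-fold, adjusted p = 3.41e-09).

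ARZ_11242_T1 had 457 and 446 CPM with 4-hydroxybenzaldehyde, against 12.7 and 11.2 CPM in the control. This was a log2 fold change of 5.24 ± 0.19 (37.9-fold, adjusted p = 7.19e-09), again with no overlap. ARZ_5267_T1, named after its values were seen because it completes the 5 genes of at least 32-fold, had 362 and 347 CPM with 4-hydroxybenzaldehyde, against 10.9 and 9.45 CPM in the control. Its log2 fold change was 5.12 ± 0.27 (34.9-fold, adjusted p = 2.44e-07). All 5 genes lay between 8.51 and 14.97 CPM on average in the control, and together they rose to 0.345% and 0.329% of CPM in the 4-hydroxybenzaldehyde libraries, against 0.00610% and 0.00528% in the control libraries. The next gene in the order, among those that met the criteria for named genes, had a log2 fold change of 3.91 (15.1-fold), and the one after it 2.88.

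The falls were smaller. ARZ_10846_T1 had 3.72 and 2.86 CPM in the 4-hydroxybenzaldehyde libraries (55 and 44 reads), against 58.7 and 40.5 CPM in the control libraries. Both treated libraries were low, and the log2 fold change was −3.91 ± 0.30, or 15.1-fold lower (adjusted p = 1.25e-05). ARZ_4964_T1 had 45.8 and 49.7 CPM with 4-hydroxybenzaldehyde, against 557 and 313 CPM in the control. The treated libraries were close to each other and the control libraries were not, and the log2 fold change was −3.19 ± 0.42, or 9.10-fold lower (adjusted p = 0.00140). By mean CPM among the genes tested, it ranked 5025 with 4-hydroxybenzaldehyde and 288 in the control. The next fall in the order was −2.90 on the log2 scale.

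The spread of the controls moved with both lists. Control replicate 1 was above control replicate 2 for 180 of the 272 genes at least 2-fold lower (66.2%) and for 52 of the 157 genes at least 2-fold higher (33.1%), against 49.1% of all genes tested. 4-Hydroxybenzaldehyde replicate 1 was above replicate 2 for 99 (36.4%) of the lower and 72 (45.9%) of the higher genes, against 48.8% of all. More than a 2-fold difference between the libraries of a pair was found for 0 of the 272 lower genes with 4-hydroxybenzaldehyde and for 10 in the control. The part of this spread in the calls was not tested beyond leaving out each library.

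How many genes were called depended on the libraries in the fit. Without 4-hydroxybenzaldehyde replicate 1 or 2, 114 (56 higher and 58 lower) or 142 (59 and 83) genes were called, and without control replicate 1 or 2, 358 (69 higher and 289 lower) or 690 (239 and 451). Changes of at least 2-fold became fewer in both directions without either 4-hydroxybenzaldehyde library or without control replicate 1. They became more frequent in both directions without control replicate 2. Without vanillin replicate 1 or 2, which enter through the shared estimate of the spread, the counts were 878 and 874. Without syringaldehyde replicate 1 or 2, the widest pair, they were 3155 and 3110. With the 4-hydroxybenzaldehyde and control libraries alone in the fit, 3200 genes were called (1326 higher and 1874 lower), which included 1413 of the 1418.

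A core of 91 genes was called in the same direction with each of the 4 libraries left out in turn. Fits with a single 4-hydroxybenzaldehyde library called almost no changes under 2-fold, which largely set the size of changes in this core. All of these genes had changed at least 2-fold in the fit of all libraries. They made up 26.8% of the genes at least 2-fold higher and 18.0% of those at least 2-fold lower. The 5 genes of at least 32-fold, ARZ_10846_T1 and ARZ_4964_T1 kept their calls in every one of these fits, and the highest adjusted p was 0.0443, for ARZ_4964_T1.

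**Figure D3:**
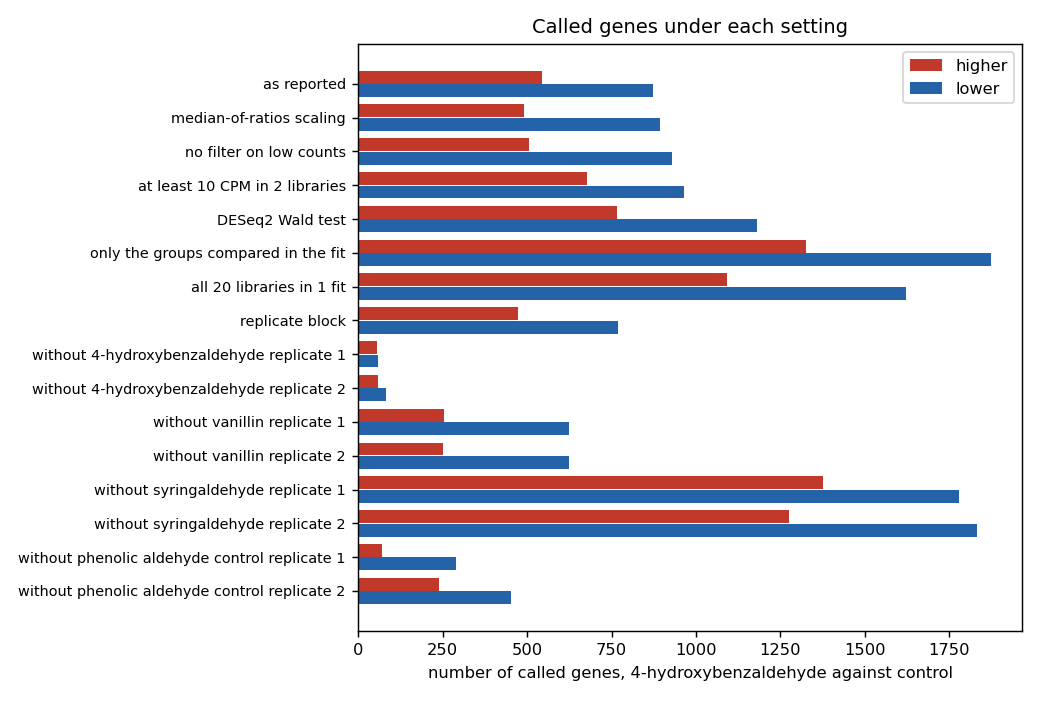
Number of genes called higher (red) and lower (blue) with 4-hydroxybenzaldehyde against the control, as reported (top) and under each of 15 other settings. The counts were lowest without either 4-hydroxybenzaldehyde library (114 and 142 in all) and highest with the compared groups alone in the fit (3200).

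The second question was where 4-hydroxybenzaldehyde differed from the phenolic aldehydes that carry methoxy groups. The compounds were matched at 0.1 g/L and not in mmol/L. Set against the mean of vanillin and syringaldehyde in 1 contrast, 4-hydroxybenzaldehyde differed at 4189 of 17495 genes (23.9%), with 2206 higher and 1983 lower. Which direction was more frequent depended on the processing, with 2097 higher and 2102 lower genes under median-of-ratios scaling, 2090 and 2103 without a filter, 1935 and 2051 with a minimum of 10 CPM, and 2145 and 2223 with DESeq2. This contrast holds 6 libraries, against 4 in the comparison with the control. Of these, 582 were at least 2-fold higher and 530 at least 2-fold lower with 4-hydroxybenzaldehyde. The count was 1120 without 4-hydroxybenzaldehyde replicate 1 and 1244 without replicate 2. In the 2 pairwise comparisons, 17.5% of genes differed from vanillin and 21.3% from syringaldehyde.

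All 5 genes of at least 32-fold were far lower with the other phenolic aldehydes. ARZ_9171_T1 and ARZ_11242_T1 were named for their large differences from vanillin and syringaldehyde in these same libraries. For them these differences are no independent test. The others were named for their rises over the control in the same 4-hydroxybenzaldehyde libraries. Their differences from vanillin and syringaldehyde are therefore not independent of that choice either. ARZ_800_T1 had 1696 and 1567 CPM with 4-hydroxybenzaldehyde, 61.6 and 60.9 CPM with vanillin, 2.70 and 5.47 CPM with syringaldehyde, and 18.8 and 11.2 CPM in the control. Its log2 difference was 4.73 from vanillin (95% interval 4.08 to 5.39) and 8.64 from syringaldehyde (7.83 to 9.45). Vanillin raised this gene over the control (log2 fold change 2.04, adjusted p = 0.000658) and syringaldehyde lowered it (−1.87, adjusted p = 0.00152), so the order was 4-hydroxybenzaldehyde, vanillin, control and syringaldehyde.

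ARZ_6554_T1 had 569 and 552 CPM with 4-hydroxybenzaldehyde, 19.7 and 17.7 CPM with vanillin and 10.1 and 9.70 CPM with syringaldehyde. The log2 difference was 4.90 from vanillin (4.45 to 5.35) and 5.82 from syringaldehyde (5.35 to 6.30). Vanillin was above the control for this gene by a log2 fold change of 0.74 (adjusted p = 0.0185), and syringaldehyde was not shown to differ from it (−0.18, 95% interval −0.61 to 0.24). ARZ_9171_T1 had 429.9 and 410.2 CPM with 4-hydroxybenzaldehyde, 14.5 and 15.8 CPM with vanillin and 5.84 and 7.21 CPM with syringaldehyde. It was higher than with vanillin by 4.80 (4.42 to 5.17) and than with syringaldehyde by 6.01 (5.60 to 6.41) on the log2 scale. Vanillin raised this gene as well over the control, by a log2 fold change of 0.83 (95% interval 0.47 to 1.18, adjusted p = 0.00519), and syringaldehyde did not pass the test (−0.38, adjusted p = 0.127).

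ARZ_11242_T1 had 457 and 446 CPM with 4-hydroxybenzaldehyde, 14.9 and 16.3 CPM with vanillin and 7.91 and 10.4 CPM with syringaldehyde, log2 differences of 4.86 (4.46 to 5.26) and 5.62 (5.20 to 6.04). ARZ_5267_T1 had 362 and 347 CPM with 4-hydroxybenzaldehyde, 12.02 and 13.6 CPM with vanillin and 6.15 and 12.5 CPM with syringaldehyde, log2 differences of 4.79 (4.22 to 5.36) and 5.25 (4.66 to 5.83). For neither gene did vanillin or syringaldehyde pass the test against the control, with adjusted p-values from 0.130 to 0.762. For the 5 genes, adjusted p-values of the differences over both pairs and all genes ran from 2.14e-09 to 7.20e-07.

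**Figure D4:**
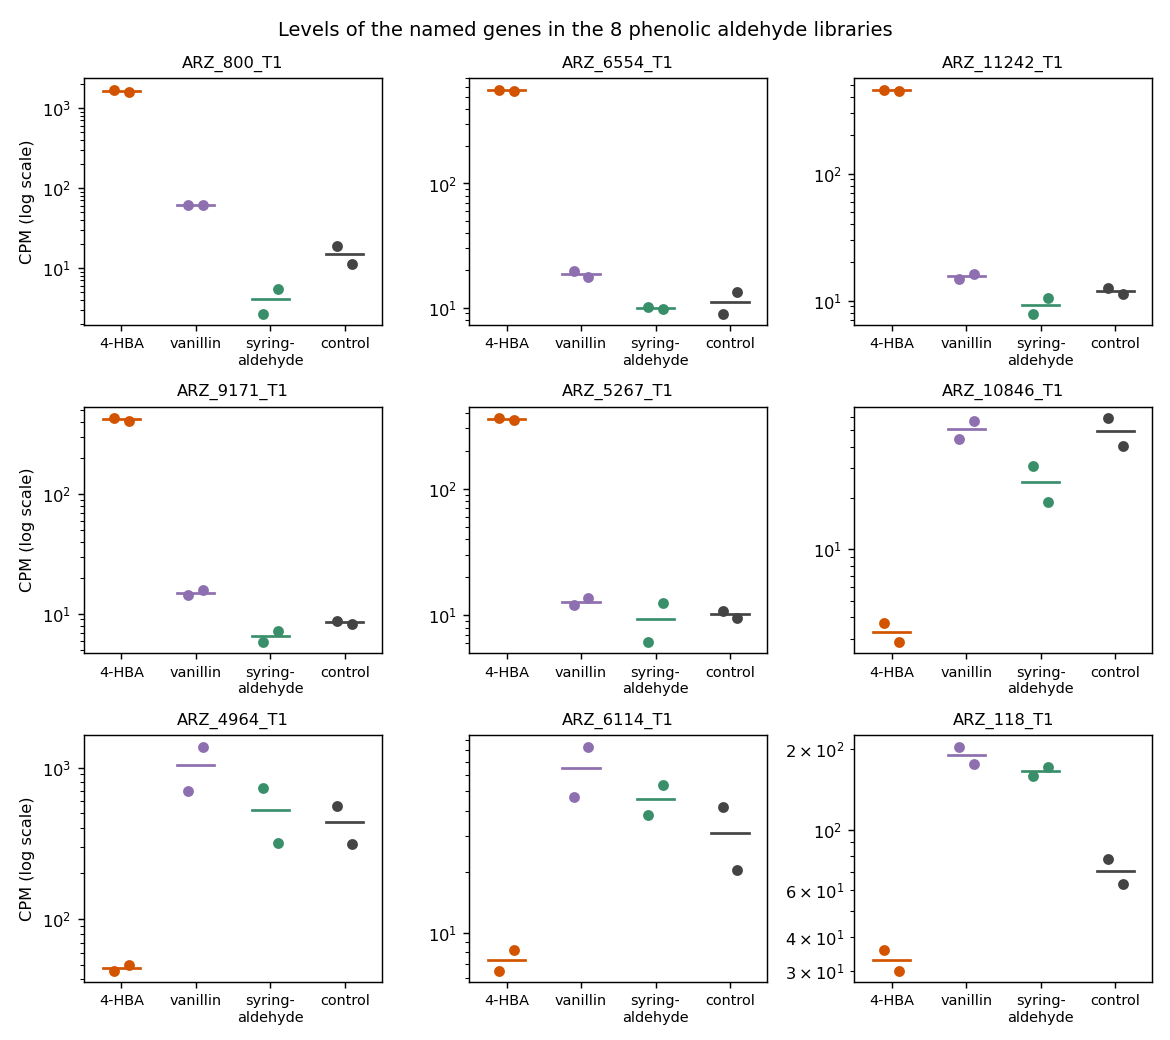
Levels in CPM (log scale, with its own range in each panel) of the 9 named genes in the 8 phenolic aldehyde libraries; points are libraries, bars the means of 2, and 4-HBA stands for 4-hydroxybenzaldehyde. The 5 genes that rose at least 32-fold are at 347 CPM or more with 4-hydroxybenzaldehyde and at 61.6 CPM or less in the other 6 libraries. With 4-hydroxybenzaldehyde the 4 genes that fell lie below the other 6 libraries. No overlap with the control was a condition for naming a gene. For ARZ_9171_T1, ARZ_11242_T1, ARZ_6114_T1 and ARZ_118_T1, no overlap with vanillin or syringaldehyde was a condition too.

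The genes that fell furthest did not do so with the other phenolic aldehydes to the same degree. ARZ_10846_T1 had 3.72 and 2.86 CPM with 4-hydroxybenzaldehyde, 44.5 and 56.5 CPM with vanillin, and 30.8 and 19.0 CPM with syringaldehyde. The log2 difference was −3.94 from vanillin (−4.57 to −3.30) and −2.92 from syringaldehyde (−3.55 to −2.28). It fell with syringaldehyde over the control as well, by 0.99 on the log2 scale (adjusted p = 0.01205).

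ARZ_4964_T1 had 45.8 and 49.7 CPM with 4-hydroxybenzaldehyde, 698 and 1374 CPM with vanillin, and 735 and 317 CPM with syringaldehyde. The treated pair was low and even, and the pairs of the other compounds were wide. The log2 difference was −4.44 from vanillin (−5.40 to −3.47) and −3.46 from syringaldehyde (−4.38 to −2.54). Vanillin raised this gene over the control (log2 fold change 1.25, adjusted p = 0.0407).

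In ARZ_118_T1 the phenolic aldehydes moved apart on both sides of the control. It had 35.9 and 30.1 CPM with 4-hydroxybenzaldehyde, 204 and 175 CPM with vanillin, 159 and 172 CPM with syringaldehyde, and 78.2 and 63.2 CPM in the control. The gene fell with 4-hydroxybenzaldehyde (log2 fold change −1.10 ± 0.17, adjusted p = 0.00312) and rose with vanillin (1.42, adjusted p = 0.000201) and syringaldehyde (1.23, adjusted p = 0.000425). The differences were −2.52 from vanillin (−2.90 to −2.15) and −2.32 from syringaldehyde (−2.70 to −1.95). The call against the control was lost without 4-hydroxybenzaldehyde replicate 2 (log2 fold change −0.98, adjusted p = 0.0774).

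ARZ_6114_T1 had 6.497 and 8.19 CPM with 4-hydroxybenzaldehyde, 46.9 and 83.2 CPM with vanillin, 38.3 and 53.7 CPM with syringaldehyde, and 41.8 and 20.5 CPM in the control. Its log2 fold change against the control was −2.08 ± 0.35 (adjusted p = 0.00497). This call was lost when control replicate 1 was left out (log2 fold change −1.49, adjusted p = 0.0541) or when 4-hydroxybenzaldehyde replicate 1 was (−1.92, adjusted p = 0.0794). The differences were −3.14 from vanillin (−3.91 to −2.37) and −2.65 from syringaldehyde (−3.41 to −1.88). For the 4 genes that fell, adjusted p-values of the differences over both pairs and all genes ran from 1.26e-06 to 0.000407. ARZ_118_T1 and ARZ_6114_T1 were named for their large differences from vanillin and syringaldehyde in these same libraries. For them these differences are no independent test. ARZ_10846_T1 and ARZ_4964_T1 were named for their falls against the control in the same 4-hydroxybenzaldehyde libraries. Their differences from vanillin and syringaldehyde are not independent of that choice either.

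In all, 41 genes were at least 2-fold higher and 34 at least 2-fold lower with 4-hydroxybenzaldehyde than with the control, vanillin and syringaldehyde alike, with at least 10 CPM in 1 of the groups and no overlap of libraries. Against the control alone, 119 higher and 242 lower genes of the 17495 tested met these criteria. The comparisons with the control, vanillin and syringaldehyde share the 4-hydroxybenzaldehyde libraries and are not independent. Among the 41 higher genes, vanillin itself was called higher than the control for 9 (22.0%) and lower for 3 (7.32%), against 8.83% and 10.4% of all genes. Syringaldehyde was called higher for 0 of the 41 in the edgeR test (also 0 at an unadjusted p under 0.05 and with DESeq2) and lower for 14 (34.1%), against 10.9% and 13.2% of all genes. Among the 34 lower genes, vanillin was called higher for 4 and lower for 0 in the edgeR test (2 at an unadjusted p under 0.05, and 1 with DESeq2), and syringaldehyde higher for 1 and lower for 3. The genes were chosen by their control, vanillin and syringaldehyde libraries, the same ones these counts compare, so the choice fixes part of the counts and nothing is read from them against the shares of all genes.

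The third question was how the response compared with those to inhibitors of other classes, which were measured against controls of their own. The 5 genes of at least 32-fold stayed low in all 12 libraries of the furan and weak acid experiments. ARZ_800_T1 ranged from 6.69 to 18.4 CPM there, with a median of 10.6. The ranges were 5.12 to 20.1 CPM for ARZ_6554_T1, 7.85 to 16.8 CPM for ARZ_11242_T1, 6.22 to 29.1 CPM for ARZ_9171_T1 and 8.92 to 20.5 CPM for ARZ_5267_T1. Levels were scaled within each experiment, so differences between experiments were not tested.

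With the 4 inhibitors of those experiments, each against its own control, these genes gave 20 log2 fold changes that ran from −1.64 to 1.31, of which 3 were called higher and 6 lower. Over all genes, these inhibitors called 5.01% (HMF) to 21.0% (formic acid) higher and 3.44% (HMF) to 18.9% (formic acid) lower. ARZ_9171_T1 rose with furfural by a log2 fold change of 1.31 ± 0.20 (adjusted p = 2.01e-05) and with acetic acid by 0.67 ± 0.21 (adjusted p = 0.0189). ARZ_5267_T1 rose with furfural by 0.53 ± 0.20 (adjusted p = 0.0470). ARZ_800_T1 fell with furfural by 0.75 and with HMF by 0.98 on the log2 scale (adjusted p = 0.0148 and 0.0109). ARZ_6554_T1 fell with formic acid (log2 fold change −1.64 ± 0.21, adjusted p = 1.88e-05) and acetic acid (−0.57 ± 0.20, adjusted p = 0.0316). ARZ_11242_T1 fell with acetic acid (−0.60, adjusted p = 0.0294) and formic acid (−0.62, adjusted p = 0.0249).

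**Figure D5:**
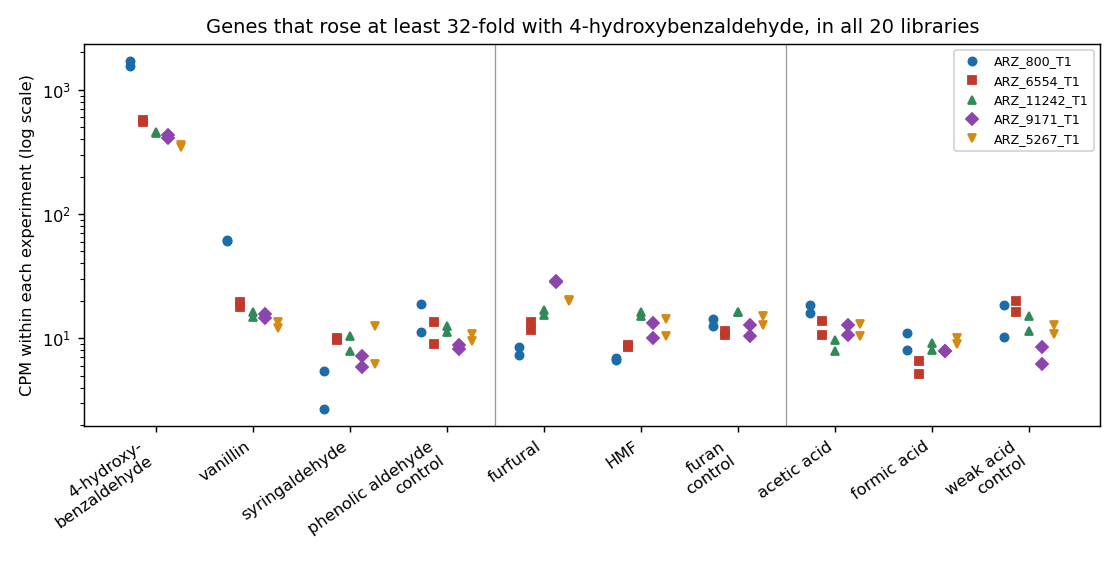
Levels in CPM (log scale, scaled within each experiment) of the 5 genes that rose at least 32-fold with 4-hydroxybenzaldehyde, in all 20 libraries; each symbol is 1 library, and vertical lines part the phenolic aldehyde, furan and weak acid experiments. The 2 libraries of 4-hydroxybenzaldehyde hold 347 to 1696 CPM, and the other 18 libraries hold 2.70 to 61.6 CPM.

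The named genes that fell had wider ranges than the named rises over the 12 libraries of the other experiments, treated and control together. The ranges were 37.2 to 818 CPM for ARZ_4964_T1, 1.14 to 73.9 CPM for ARZ_10846_T1, 12.2 to 86.1 CPM for ARZ_6114_T1 and 28.3 to 383 CPM for ARZ_118_T1. ARZ_4964_T1 fell with furfural (log2 fold change −1.93 ± 0.27, adjusted p = 0.000446) and HMF (−1.23 ± 0.26, adjusted p = 0.0220). It rose with acetic acid (1.29 ± 0.23, adjusted p = 0.000507) and formic acid (2.33 ± 0.24, adjusted p = 5.53e-06). ARZ_10846_T1 likewise fell with furfural (−1.25, adjusted p = 0.0150) and HMF (−1.80, adjusted p = 0.00694) and rose with formic acid (2.19, adjusted p = 5.84e-07). ARZ_6114_T1 fell with furfural (−0.88, adjusted p = 0.00453) and HMF (−1.55, adjusted p = 0.000288) and rose with formic acid (1.76, adjusted p = 9.05e-06). ARZ_118_T1 was not shown to change with furfural or HMF, and fell with acetic acid (−3.04, adjusted p = 1.13e-05) and formic acid (−1.96, adjusted p = 0.000157). Control levels follow in the order furan, weak acid and phenolic aldehyde experiment. For ARZ_10846_T1 they were 9.72 and 5.47, 12.8 and 18.9, and 58.7 and 40.5 CPM. For ARZ_4964_T1 they were 210 and 108, 108 and 204, and 557 and 313 CPM. For ARZ_6114_T1 they were 56.2 and 34.9, 17.7 and 25.5, and 41.8 and 20.5 CPM. For ARZ_118_T1 they were 75.2 and 60.6, 307 and 383, and 78.2 and 63.2 CPM. Differences between experiments were not tested.

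Over all called genes, the lists were compared with those of inhibitors that share no library with 4-hydroxybenzaldehyde. Of 531 genes higher with 4-hydroxybenzaldehyde and also tested with furfural, 211 (39.7%) were higher with furfural, which called 17.4% of the 16351 genes tested in both experiments as higher. These 211 were 7.42% of the 2844 genes higher with furfural. Of 866 genes lower with 4-hydroxybenzaldehyde, 316 (36.5%) were lower with furfural, against 16.9% of all genes, and were 11.4% of its 2766 lower genes. Genes with at least 10 CPM gave 40.5% against 19.2% for the higher genes and 37.4% against 21.7% for the lower. With each of the 8 libraries left out in turn, both shares stayed above those of all genes, and the share of lower genes was 56.9% without 4-hydroxybenzaldehyde replicate 1.

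With HMF, 54 of the 531 higher genes (10.17%) were higher, against 5.01% of all genes, and made up 6.59% of its list. Of the 866 lower genes, 117 (13.5%) were lower with HMF, against 3.44% of all, and were 20.8% of its list of 563. At 10 CPM or more the shares were 10.6% against 6.13% and 13.5% against 4.12%. They stayed above those of all genes with each library left out, but the share of lower genes was 25.9% and 26.5% without 4-hydroxybenzaldehyde replicate 1 or 2, and that of higher genes was 6.78% without control replicate 2.

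The weak acids gave another picture. With acetic acid, 145 of 532 higher genes (27.3%) were higher, against 19.7% of 16615 genes, and 185 of 867 lower genes (21.3%) were lower, against 18.4%. They were 4.44% and 6.07% of its lists. Among genes with at least 10 CPM, the higher genes gave 29.1% against 23.5%, and the lower genes gave 21.1%, just below the 21.6% of all such genes. The share of higher genes was 42.9% and 44.1% without 4-hydroxybenzaldehyde replicate 1 or 2 and 52.5% without control replicate 2. The share of lower genes was 14.9%, below that of all genes, without control replicate 1. With formic acid, 98 higher genes (18.4%) were higher, against 21.0%, and 173 lower genes (19.95%) were lower, against 18.9%, and they were 2.81% and 5.52% of its lists. At 10 CPM or more they gave 19.0% against 26.1% and 19.4% against 20.1%. Neither direction held: the share of higher genes lay above that of all genes in 6 of 8 fits with a library left out, at up to 32.2% without 4-hydroxybenzaldehyde replicate 2 and 28.0% without control replicate 2. The share of lower genes lay above it in 4 of 8, and was 12.1% without 4-hydroxybenzaldehyde replicate 1.

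Moves in the opposite direction were counted too. Of the 867 genes lower with 4-hydroxybenzaldehyde, 335 (38.6%) were higher with formic acid and 238 (27.5%) with acetic acid, against 21.0% and 19.7% of all genes. At 10 CPM or more this was 39.5% against 26.1% and 28.1% against 23.5%. Both shares stayed above those of all genes with each library left out, at 34.2% to 60.3% with formic acid (60.3% without 4-hydroxybenzaldehyde replicate 1) and 24.6% to 42.6% with acetic acid (41.4% without that library and 42.6% without control replicate 1). Of the 532 genes higher with 4-hydroxybenzaldehyde, 112 (21.1%) were lower with formic acid and 105 (19.7%) with acetic acid, near the 18.9% and 18.4% of all genes. These shares lay on both sides of those of all genes when single libraries were left out, at 16.1% to 30.4% and 12.3% to 26.1% (the lowest without control replicate 2 and the highest without control replicate 1).

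With furfural, the shares of opposite moves lay below those of all genes. Of the 531 higher genes, 57 (10.7%) were lower with furfural, against 16.9%, and of the 866 lower genes, 86 (9.93%) were higher with it, against 17.4%, and both shares were below those of all genes in each of the 8 fits with a library left out. With HMF, 9 of the higher genes (1.69%) were lower, against 3.44%, and 28 of the lower genes (3.23%) were higher, against 5.01%, on few genes. The first of these was 2.90% to 3.57% without any 1 of the 4 compared libraries. The second was 0 of 83 genes, 1.72% and 2.08% without 4-hydroxybenzaldehyde replicate 2, 4-hydroxybenzaldehyde replicate 1 or control replicate 1. All these shares are descriptions of the lists, with no test. Lists from fits with a library left out were often much shorter or longer than the reported ones. Their shares therefore rest on other numbers of genes.

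The log2 fold changes themselves were weakly related. Across 11573 genes with at least 10 CPM that were tested in all 3 experiments, Pearson's r between 4-hydroxybenzaldehyde and furfural was 0.21, and it was 0.21 with HMF, 0.02 with acetic acid and −0.11 with formic acid. Spearman's rho was 0.21, 0.23, −0.01 and −0.10. The points are genes of the same few libraries and are not independent replicates.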

How the data were processed

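Gene counts of 20 libraries were used, in 3 count tables, 1 for each experiment. As deposited, each value was an unnormalized whole-number count of reads per gene identifier, per the file headers. RNA came from a Trizol extraction and an Ion Proton library kit, per the labels' protocols. Which aligner, counting program and gene models the authors used is not given in the sources used here. Sscrofa 10.2, a build of the pig genome, stands in the submitters' processing notes, and the ARZ identifiers are not pig genes.

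Genes were kept with edgeR's filterByExpr (17495 of 18830 in the phenolic aldehyde experiment; those left out held 0.0210% of the counts) and scaled with TMM to CPM. All groups of an experiment entered 1 fit. Tests were two-sided robust quasi-likelihood F-tests of edgeR 4.0.16 in R 4.3.3, with Benjamini-Hochberg adjustment. The common biological coefficient of variation was 0.155. Standard errors came from the F statistics, and 95% intervals from their degrees of freedom. P-values of the 2 pairs of compounds were also adjusted together. Molar doses were computed with rdkit 2024.09.2.

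To be named, a gene needed an adjusted p under 0.05, a change of 2-fold or more, a mean of 10 CPM or more in 1 of the 2 groups, and no overlap of libraries. The 2 largest rises and 2 largest falls against the control were taken. Added to these were the 2 further rises and falls with the largest differences from both vanillin and syringaldehyde. These further genes had to meet the same criteria, in the same direction, against vanillin and against syringaldehyde. The comparison, the rule and the tests were chosen with earlier results of these data known, and the 32-fold limit was set after seeing the values.

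On counts simulated for the comparison with the control, with 200 of 17495 genes changed, 70% of genes changed 2-fold and 95% of those changed 4-fold were recovered, and 4.62% of calls were false. In the data 8.11% of genes were called, with median fold changes of 1.75 (higher) and 1.80 (lower). Recovery of changes under 2-fold is not given, so these shares do not describe most of the calls. The alternatives tried were scaling by the median of ratios, all genes without a filter, a minimum of 10 CPM in 2 libraries, DESeq2 1.42.0, fits of only the groups compared, a fit of all 20 libraries, a replicate block, and each of the 8 libraries left out in turn. Figures were drawn with matplotlib 3.10.9.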

Additional observations from a re-analysis of the deposited data

How the results depend on the processing

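The 9 named genes kept their direction under all 15 other settings, in the comparisons with the control, vanillin and syringaldehyde alike. Of 405 such values, 402 also kept their call. The 3 exceptions, for ARZ_6114_T1 and ARZ_118_T1 against the control, are given in the report. The count of genes changed against the control was within 1.5 times the reported one with median-of-ratios scaling, no filter, the 10 CPM minimum and DESeq2. It was 3200 (1326 higher and 1874 lower) with only the groups compared in the fit, and 2714 (1092 higher and 1622 lower) with all 20 libraries in 1 fit. Leaving out 1 library gave 114 to 3155 changed genes, 56 to 1376 higher, 58 to 1834 lower, 53 to 206 at least 2-fold higher and 58 to 302 at least 2-fold lower. The lone library left in a group is then assumed to vary like the other groups. The share of higher genes among the calls was 38.4% as reported, 35.5% with median-of-ratios scaling, and from 19.3% (without control replicate 1) to 49.1% (without 4-hydroxybenzaldehyde replicate 1, where the excess of lower genes was 58 against 56) with 1 library left out. In the comparison with the mean of vanillin and syringaldehyde, leaving out 1 library gave 1120 to 5764 differing genes, 721 to 2901 higher and 399 to 2863 lower. The lowest counts came without a 4-hydroxybenzaldehyde library, and without vanillin replicate 2 the lower genes were 1307.

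Shares of the 4-hydroxybenzaldehyde lists also called in the same direction with another inhibitor changed by at most 1.62 percentage points under the other scaling, the 10 CPM minimum and DESeq2, which use the same libraries. Single libraries moved them more, and changed the length of the lists as well. Without 1 library they ran, for higher genes, from 32.9% to 48.2% with furfural, 6.78% to 14.3% with HMF, 24.4% to 52.5% with acetic acid and 18.8% to 32.2% with formic acid. For lower genes they ran from 32.3% to 56.9%, 10.04% to 26.5%, 14.9% to 25.3% and 12.1% to 20.6%. Shares called in the opposite direction, for which these alternatives were chosen after seeing the data, changed by at most 2.44 percentage points under those settings. Without 1 library they ran, for genes higher with 4-hydroxybenzaldehyde, from 10.7% to 14.9% lower with furfural, 1.70% to 3.57% with HMF, 12.3% to 26.1% with acetic acid and 16.1% to 30.4% with formic acid. For genes lower with 4-hydroxybenzaldehyde they ran from 7.23% to 11.2% higher, 0% to 4.23%, 24.6% to 42.6% and 34.2% to 60.3%.

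With the replicate number as a block, 1243 genes were changed against the control (473 higher and 770 lower), of which 1195 were among the 1418. The numbers were not shown to pair the libraries. Deviations of same-numbered libraries correlated by 0.06 across genes between 4-hydroxybenzaldehyde and the control, and by −0.12 to 0.10 over the 6 pairs of groups. Under 1 CPM 1 of 1149 genes was called, and how many true changes of such genes the test would recover was not tested.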

Other observations

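Genes called in the same direction also stood beside each other in identifier number more often than genes at large. Of the 544 genes higher with 4-hydroxybenzaldehyde, 56 (10.3%) had a called higher gene at the identifier number just before or after their own, against 5.85% of all 17495 genes tested. Of the 874 lower genes, 125 (14.3%) had a called lower gene at such a number, against 9.44% of all genes tested. Whether identifier numbers follow the order of genes in the genome is not given in the sources used here, and the difference was not tested.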
